A study of Mus musculus with 6 samples.

Results

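Secreted immune signals of the epidermis outside the interleukin-1 family were followed as 9 genes, Il24, Tslp, Il34, Cxcl1, Cxcl2, Cxcl14, Ccl6, Ccl20 and Ccl27a, out of 49452 gene rows in the deposited table. The genes were chosen by name with their control and knockout levels already known, so those levels are a description and carry no p-value. The libraries came from epidermis of C57BL/6 mice at E19.5, late in gestation. Of these, 3 were labelled control (261, 262 and 264) and 3 were labelled Rictor -/- and titled ricEKO (263, 265 and 266). Rictor is the scaffold that sets mTOR complex 2, an AKT kinase, apart from complex 1, and the series asked how mRNA levels differ without it. The driver of the deletion, the genotype of the controls beyond that word, and whether each library is a separate animal are not stated in the labels. P-values therefore measure only the spread between these libraries, part of which may be technical.

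Keratinocytes recruit and maintain immune cells with chemokines and cytokines. Some are secreted in healthy skin, such as Cxcl14, Ccl27a and Il34, the last of which sustains Langerhans cells through the receptor CSF1R. Others are held low and induced by injury or inflammation, such as Cxcl1, Cxcl2 and Ccl20, which are known targets of the transcription factor NF-kB, and Il24 of the IL-20 subfamily. Tslp, an epithelial cytokine that acts on dendritic cells and lymphocytes, is known to be induced in damaged or inflamed skin.

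The promoters of the inducible chemokines are shown because Cxcl1, Cxcl2 and Ccl20 were all higher in the knockout-labelled libraries. The stretches below run 5′ to 3′ from 140 to 31 bases before the RefSeq start site on GRCm38.p6. Capitals mark matches on either strand to GGAATTTCC, a core NF-kB pattern, or to a loose one (3 G, any 5 bases, 2 C).
Cxcl1 (chr5:90891105-90891214, + strand): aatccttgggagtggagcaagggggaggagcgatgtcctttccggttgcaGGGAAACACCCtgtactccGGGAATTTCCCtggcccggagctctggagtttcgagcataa
Cxcl2 (chr5:90903759-90903868, + strand): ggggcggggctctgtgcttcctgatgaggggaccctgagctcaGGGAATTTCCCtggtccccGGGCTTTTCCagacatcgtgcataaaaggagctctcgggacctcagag
Ccl20 (chr1:83116626-83116735, + strand): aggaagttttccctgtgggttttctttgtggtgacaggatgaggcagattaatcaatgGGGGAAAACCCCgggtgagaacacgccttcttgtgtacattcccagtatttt
Cxcl1 and Cxcl2 both hold GGAATTTCC, starting 70 and 96 bases before the start site and lying inside loose matches, and Ccl20 holds loose matches only. Of 32851 promoter windows of 300 bases, 104 hold GGAATTTCC (0.317%) and 50.8% hold the loose pattern. Of the 6 chemokines with a promoter entry, Ccl6 and Cxcl14 hold neither. Cxcl1 and Cxcl2 are 2 of 103 genes with GGAATTTCC, and of the rest 38 were tested, 7 rose and 5 fell by limma, where 7.91% of all tested genes rose and 15.6% fell. The median log2 difference of those 38 was -0.02, beside -0.06 over all tested genes. Those that rose include Icam1, an adhesion receptor, and Dusp6, a phosphatase of ERK kinases, both named after their values were seen. The form with 1 more G before the core was searched first and gave another count: 29 windows, 27 genes outside the 9, 10 tested, 0 risen and 1 fallen (Asb8, limma adjusted p = 0.0317). The shorter core was adopted after that result was known, so neither count is support for a shared motif effect. A match describes these letters and does not show binding.

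The table gives FPKM, fragments scaled to transcript length and library depth, so levels can be compared between genes. Library sums lay between 609375 and 672925 FPKM, and depth relative to control 261, read from the smallest value steps, reached at most 1.21. Epidermal identity was clear from Krt1 and Krt10, at 9800 to 13050 FPKM in every library. Of 7 keratinocyte markers, all tested, 2 rose, 1 fell and 4 did not pass. Krt14 rose from 2582 to 5949 FPKM (limma adjusted p = 0.00373) and Krt5 from 3515 to 5212 FPKM (limma adjusted p = 0.00972). Dsg1a fell from 170 to 135 FPKM (limma adjusted p = 0.0465). Keratinocyte transcripts were thus not alike in the 2 groups, and their part in the values below was not tested. Rictor itself did not fall in the knockout-labelled libraries, at 5.63, 6.02 and 4.37 FPKM in controls 261, 262 and 264 against 6.83, 7.04 and 6.86 FPKM in 263, 265 and 266 (limma adjusted p = 0.0694). A value over the whole gene may include exons that the deletion spares, so it does not check the labels, and every direction below is that of libraries labelled knockout. Control 264 stood apart, with deviations that fell with gene length (Spearman's rho -0.36, across genes that are not independent). The length trend also ran with the label: for 261 and 262 rho was -0.007 and 0.003, whereas the knockout-labelled 263, 265 and 266 gave 0.17, 0.19 and 0.26. After adjusting each library for this trend, the log2 differences of Il24, Il34, Cxcl1, Cxcl14, Ccl6, Ccl20 and Ccl27a were 1.90, -0.94, 1.16, 0.18, -1.55, 1.03 and -0.32. Without 264 the differences of Il24, Il34, Cxcl1, Ccl6, Ccl20 and Ccl27a were 1.77, -0.99, 0.97, -1.53, 0.95 and -0.37 on the log2 scale.

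Among the 9 genes the levels spanned a wide range, and the order changed with the label. In controls, Cxcl14 led with a mean of 383 FPKM, followed by Ccl27a at 47.6, Il34 at 47.0, Ccl6 at 7.79, Ccl20 at 0.461 and Cxcl1 at 0.155 FPKM. Cxcl2, Tslp and Il24 came last, each listed at 0 in at least 1 control library. Ccl27a and Il34 overlapped library by library there, as did Cxcl2, Tslp and Il24, and Cxcl1 overlapped Cxcl2 and, through control 261, Ccl20. In the knockout-labelled libraries Il24 moved from the last place to the fourth, at 2.62 FPKM, while Cxcl14, Ccl27a and Il34 kept the first 3 places at 391, 34.1 and 21.4 FPKM, without overlap between them. Il24, Ccl6, Ccl20 and Cxcl1 overlapped with one another in those libraries. The groups did not overlap for 7 of the 9 genes, 4 higher and 3 lower, against 45.8% of the 13500 genes tested in the whole table (16.6% higher and 29.2% lower). A log2 difference of at least 1 in size was seen in 4 of the 9, against 3.07% of tested genes. Of the 7 genes whose mean reached 1 FPKM in one group or both, 3 passed limma's adjusted p threshold of 0.05 as higher and 3 as lower, against 7.91% and 15.6% of all tested genes. Among all calls, 33.7% were higher, and 44.7%, 47.9% and 51.9% were so under median scaling, quantile normalization and an adjustment for gene length. Since the genes were picked on this contrast, nothing is read from those counts. Il24, Cxcl1 and Ccl20 reached that level only through the knockout-labelled libraries, so they had to differ, and Tslp and Cxcl2 did not reach it.

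**Figure D1:**
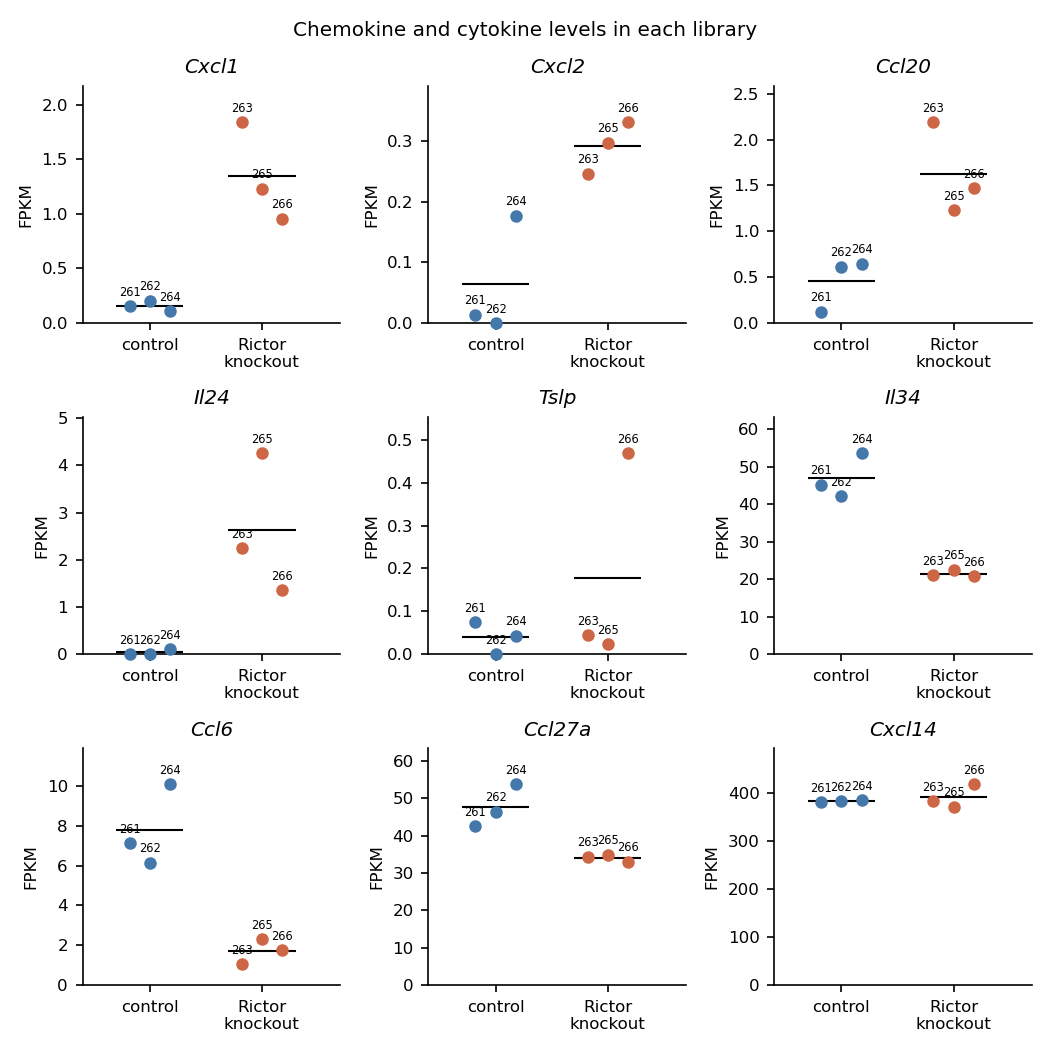
FPKM (vertical axes, linear from 0) of the 9 genes in the 3 control (blue) and 3 Rictor knockout (orange) libraries, with library numbers beside the points and lines at group means. Cxcl1, Cxcl2, Ccl20 and Il24 sit higher and Il34, Ccl6 and Ccl27a lower in all 3 knockout libraries, Cxcl14 overlaps between groups, and Tslp is raised in 266 alone.

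The neutrophil-attracting chemokines Cxcl1 and Cxcl2, ligands of the receptor CXCR2, lie next to each other on chromosome 5, 10756 bases apart. Cxcl1 (ENSMUSG00000029380, chromosome 5, 90891241 to 90893115, + strand, GRCm38) measured 0.154, 0.203 and 0.107 FPKM in control libraries 261, 262 and 264, against 1.84, 1.23 and 0.957 FPKM in 263, 265 and 266. The lowest knockout-labelled value was thus well above the highest control. Mean FPKM was 8.69-fold higher, and the difference on the log2(FPKM + 1) scale, the scale of every log2 difference here, was 1.005 ± 0.17 (SE, n = 3 per group). Cxcl2 (ENSMUSG00000058427, chromosome 5, 90903871 to 90905938) was lower than Cxcl1 in all libraries but control 264, at 0.0139, 0 and 0.177 FPKM in the controls and 0.246, 0.297 and 0.331 FPKM in the knockout-labelled libraries. Its groups did not overlap, but control 264 came close to 263, and the difference of 0.28 was not tested. Of the 50-base windows of Cxcl2 transcripts, 5.84% also occur in Cxcl3, the closest relative, which reached at most 0.0746 FPKM. Of the genes within 100 kb, Cxcl15 was listed at 0 in every library, and Mthfd2l stood at 7.39 FPKM in controls and 6.95 FPKM in knockout-labelled libraries (limma difference -0.07 ± 0.12).

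Ccl20 (ENSMUSG00000026166, chromosome 1, 83116766 to 83119167, + strand) is the ligand of CCR6, found on Langerhans cell precursors and some T cells. It measured 0.122, 0.615 and 0.648 FPKM in control libraries 261, 262 and 264, against 2.19, 1.23 and 1.47 FPKM in 263, 265 and 266. Control 261 was 5.33-fold below control 264, a wider spread than the 1.77-fold among the knockout-labelled libraries. The group means differed 3.53-fold and by 0.85 ± 0.21 on the log2 scale. Ccl20 was picked on this contrast and entered the test only through the knockout-labelled libraries, so nothing is read from its limma call. That call was lost without 261, 263 or 266, with a term for sex, or with no filter on low values. Ccr6 itself was listed at 0 in all 6 libraries. Differences of genes near or below 1 FPKM depend on the pseudocount: with 0.1 in place of 1 they were 2.48 for Cxcl1, 1.78 for Ccl20 and 1.41 for Cxcl2, and with 5 they were 0.30, 0.28 and 0.06.

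Il24 (ENSMUSG00000026420, chromosome 1, 130882074 to 130887454, - strand), an IL-20 subfamily cytokine that signals to keratinocytes through IL-20RB paired with IL-20RA or IL-22RA1, was nearly absent from controls. It was listed at 0, 0 and 0.101 FPKM in 261, 262 and 264 and stood at 2.25, 4.26 and 1.35 FPKM in 263, 265 and 266. The 3 knockout-labelled libraries were 3.16-fold apart, with 265 the highest and 266 the lowest. The log2 difference was 1.73 ± 0.28, and no fold is given because of the controls at 0. With pseudocounts of 0.1 and 5 it was 4.28 and 0.58. The relatives in the same gene cluster stayed low. Il19 was listed at 0, 0.0281 and 0 FPKM in controls and at 0.178, 0.106 and 0.116 FPKM in knockout-labelled libraries, without overlap. Il20, 19531 bases from Il24, had overlapping groups with means of 0.144 and 0.0617 FPKM. Of the 7 genes within 100 kb of Il24, 0 reached the level for testing.

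Tslp (ENSMUSG00000024379, chromosome 18, 32815383 to 32819797, + strand) was near 0 in 5 of the 6 libraries. It measured 0.0744, 0 and 0.0432 FPKM in control libraries 261, 262 and 264, against 0.0435, 0.0234 and 0.469 FPKM in 263, 265 and 266. The groups overlapped, and the higher knockout-labelled mean rested on library 266. Without 266 the log2 difference went from 0.16 to -0.01. The same library held the most mast cell transcripts, with 14.8 FPKM summed over 8 mast cell markers against 1.96 to 8.27 FPKM elsewhere. Libraries 264 and 265 had the next highest sums, 8.27 and 6.94 FPKM, with Tslp at 0.0432 and 0.0234 FPKM. Whether mast cells bear on Tslp in 266 was not tested. Both chains of its receptor were detected: Crlf2 stood at 4.31 ± 0.216 FPKM in controls and 4.88 ± 0.382 FPKM in knockout-labelled libraries (SD, n = 3 per group; limma adjusted p = 0.227). Il7r, the shared chain with the interleukin-7 receptor, had overlapping groups between 0.358 and 0.753 FPKM.

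Il34 (ENSMUSG00000031750, chromosome 8, 110741829 to 110805924, - strand), which binds CSF1R as CSF1 does, was lower in every knockout-labelled library. It measured 45.2, 42.1 and 53.6 FPKM in control libraries 261, 262 and 264, against 21.1, 22.5 and 20.7 FPKM in 263, 265 and 266. The knockout-labelled libraries lay within 1.09-fold of each other, and the lowest control was well above the highest of them. Its mean was 47.0 ± 5.97 and then 21.4 ± 0.971 FPKM (SD, n = 3 per group), 45.6% of the control mean, and the log2 difference was -1.09 ± 0.10. The antisense genes Gm15894 and Gm15895 overlap 22 and 75 of its 1959 exonic bases and reached at most 0.603 FPKM. Among 5 tested genes within 100 kb, Mtss1l, 429 bases away, stood at 7.42 ± 0.782 and 7.48 ± 0.564 FPKM (SD, n = 3 per group; limma), while Sf3b3, 4315 bases away, rose from 43.1 to 54.7 FPKM (log2 0.34 ± 0.06, limma adjusted p = 0.0127), and Cog4 fell from 21.2 to 15.0 FPKM (-0.47 ± 0.09, limma adjusted p = 0.0113).

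Csf1r, the receptor of Il34 carried by Langerhans cells and macrophages, fell as well. It stood at 11.5, 10.4 and 10.9 FPKM in the controls and at 6.11, 6.73 and 6.38 FPKM in the knockout-labelled libraries (log2 -0.69 ± 0.07, limma adjusted p = 0.00238). The other ligand, Csf1, went from 3.63 ± 0.445 to 3.13 ± 0.657 FPKM with overlapping groups (adjusted p = 0.387 by limma). Csf1r is also 1 of 15 macrophage and monocyte markers, of which 14 were tested. Of these 11 fell, 0 rose and 3 did not pass, where 15.6% of all tested genes fell and 7.91% rose. Adgre1 was the nearest of the 11 to the threshold (limma adjusted p = 0.0460). Apart from that of Csf1r, these calls were not followed through other settings of the fit. Fcgr1, 1 of the 11, entered the test through the controls alone (1.59 against 0.57 FPKM), so a fall was favoured for it. The median log2 difference of the 14 was -0.69, beside -0.06 over all tested genes. The 15 markers summed to 178 to 226 FPKM in controls and 98.5 to 118 FPKM in knockout-labelled libraries, or 55.6% of the control mean. Among those that fell were the complement genes C1qa, C1qb and C1qc and the fractalkine receptor Cx3cr1, with C1qb falling from 38.9 ± 3.95 to 21.4 ± 2.88 FPKM (limma adjusted p = 0.00554), and Ly6c2, a monocyte marker, stayed at or below 0.113 FPKM. Among 8 Langerhans and dendritic cell markers, 4 were tested and 2 fell (Cd74 and H2-Aa), again beside 15.6% of all tested genes. Cd207, the langerin gene that defines mature Langerhans cells, reached at most 0.116 FPKM in any library, and the list summed to 31.8 to 43.4 FPKM in controls and 29.2 to 33.7 FPKM in knockout-labelled libraries. Mfge8, at 16.2 and 16.6 FPKM in the 2 groups, was 37.9% to 55.1% of that sum, and without it the list stood at 64.4% of the control mean in place of 80.3%. In bulk samples, fewer cells of a type and less RNA per cell cannot be told apart.

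Ccl6 (ENSMUSG00000018927, chromosome 11, 83587882 to 83593087, - strand), a mouse CC chemokine made by myeloid cells that acts through CCR1, had the lowest level relative to controls of the 3 genes that were lower. It measured 7.12, 6.16 and 10.1 FPKM in control libraries 261, 262 and 264, against 1.05, 2.29 and 1.74 FPKM in 263, 265 and 266. Control 264 was the highest and 263 the lowest, and the groups were far apart. The mean was 4.61-fold lower and the log2 difference -1.71 ± 0.22. With a pseudocount of 5 it was -0.93. Ccl9, the related gene 9246 bases away, stood at 1.33 ± 0.158 and 1.29 ± 0.347 FPKM with overlapping groups (limma adjusted p = 0.860). Of 3 tested genes within 100 kb, 1 fell, the pseudogene Gm11433, named after its value was seen. The macrophage and monocyte markers above were lower in the same libraries, at 55.6% of controls against 21.7% for Ccl6, and their part in the Ccl6 values was not tested. Ccr1 stood at 1.38 ± 0.342 and 1.03 ± 0.0850 FPKM with overlapping groups (adjusted p = 0.292, limma).

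**Figure D2:**
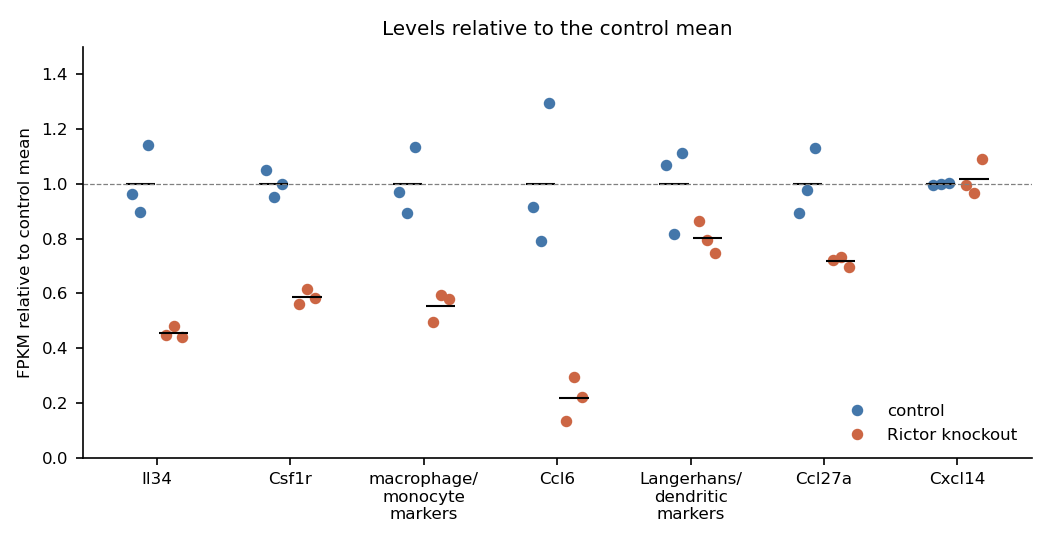
FPKM divided by the control mean (vertical axis, linear) for Il34, Csf1r, summed macrophage and monocyte markers, Ccl6, summed Langerhans and dendritic cell markers, Ccl27a and Cxcl14 in each control (blue) and Rictor knockout (orange) library, with lines at group means. Il34 sits at 45.6%, Csf1r at 58.7%, the macrophage and monocyte markers at 55.6% and Ccl6 at 21.7% of the control mean, while Cxcl14 stays at 102%; the Langerhans and dendritic sum, at 80.3%, includes Mfge8 and is 64.4% without it.

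Ccl27a (ENSMUSG00000073888, chromosome 4, 41769467 to 41774247, - strand), the keratinocyte ligand of CCR10 that draws T cells to skin, was modestly lower. It measured 42.5, 46.4 and 53.8 FPKM in control libraries 261, 262 and 264, against 34.4, 34.9 and 33.0 FPKM in 263, 265 and 266. The knockout-labelled libraries were close together and all below the lowest control. The mean was 1.40-fold lower and the log2 difference -0.46 ± 0.09, or -0.32 after an adjustment for gene length. Nothing is read from its limma call, since the gene was picked on this contrast, and without 263 or 266 the call was lost. The value is less certain than the others because 45.0% of the 50-base windows of its transcripts recur in other genes, chiefly the near-copies Gm20878, Gm13306 and Ccl27b. Gm20878 reached at most 1.15 FPKM and Ccl27b was listed at 0. Ccl27a also shares 8 exonic bases with Il11ra1 on the other strand, which stood at 47.1 and 40.1 FPKM. Ccr10 was low, at 0.334, 0.565 and 0.570 FPKM in controls and 0.253, 0.287 and 0.351 FPKM in knockout-labelled libraries, with overlapping groups.

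Cxcl14 (ENSMUSG00000021508, chromosome 13, 56288643 to 56296551, - strand), a chemokine secreted constitutively by epithelia, was the most abundant and the most even of the 9. It measured 381, 383 and 385 FPKM in control libraries 261, 262 and 264, against 382, 371 and 418 FPKM in 263, 265 and 266. The control libraries were within 1.01-fold of each other and lay inside the range of the knockout-labelled ones. The log2 difference was 0.03 ± 0.07, without library 266 it was -0.02, and after the length adjustment 0.18.

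The receptors and binding partners of the 9 genes were read as a list of 15, of which 8 were tested, 3 fell and 1 rose, against 15.6% and 7.91% of all tested genes. Their median log2 difference was -0.25, beside -0.06 over all tested genes. Il20rb, the chain through which Il24 signals, stood at 64.7, 65.9 and 69.2 FPKM in the controls and at 28.6, 30.1 and 27.9 FPKM in the knockout-labelled libraries. The ranges were tight and far apart, and the log2 difference was -1.18 ± 0.06 (limma adjusted p = 0.000463). Its partner Il22ra1 stood at 14.9 ± 1.73 and 12.1 ± 0.589 FPKM (adjusted p = 0.0701, limma), and Il20ra had overlapping groups, none above 0.340 FPKM. In the libraries with more Il24, then, the receptor chain was at 43.3% of its control level.

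Sdc1, the abundant syndecan that binds Il34, rose from 212 ± 16.0 to 284 ± 12.6 FPKM (log2 0.42 ± 0.08, limma adjusted p = 0.0140), while Ptprz1, another binding partner, differed by 0.40 ± 0.12 and did not pass (adjusted p = 0.0530, limma). The call of Sdc1 was lost without 263 or 265 (adjusted p = 0.0532 to 0.0612, limma). Ackr2, a scavenger receptor that removes inflammatory CC chemokines, measured 2.07, 1.40 and 0.704 FPKM in control libraries 261, 262 and 264, against 0.227, 0.0828 and 0.123 FPKM in the others (log2 -1.02 ± 0.22, limma adjusted p = 0.0206). It entered the test through the controls alone, and its call was lost without 262, 263, 265 or 266 (adjusted p = 0.0546 to 0.0643, limma). Cxcr2, the receptor of Cxcl1 and Cxcl2, was below the level for testing, at 0.149, 0.0539 and 0.0499 FPKM in controls and 0.879, 0.732 and 0.850 FPKM in knockout-labelled libraries. Its groups did not overlap. Cxcr2 is also a neutrophil marker, but the other 8 neutrophil markers were all below 0.5 FPKM in every library, with Ly6g listed at 0 throughout. The 9 markers summed to 0.683 to 0.979 FPKM in controls and 1.20 to 1.53 FPKM in knockout-labelled libraries. The higher sum was that of Cxcr2 alone: the other 8 summed to 0.534, 0.870 and 0.929 FPKM in controls 261, 262 and 264, against 0.348, 0.464 and 0.678 FPKM in 263, 265 and 266, with overlapping groups and a lower mean in the latter.

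**Figure D3:**
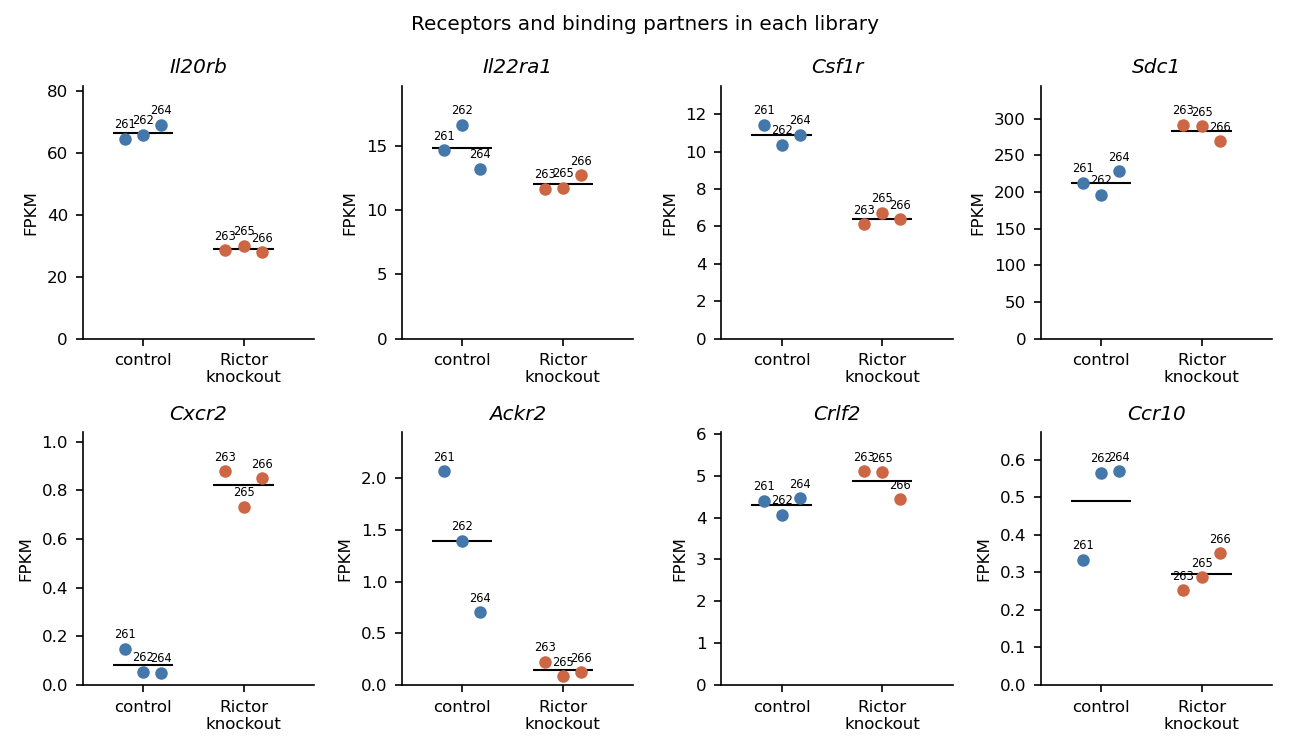
FPKM (vertical axes, linear from 0) of receptors and binding partners in the 3 control (blue) and 3 Rictor knockout (orange) libraries, with library numbers and group means as lines. Il20rb falls from between 64.7 and 69.2 to between 27.9 and 30.1 FPKM, Csf1r and Ackr2 fall, Sdc1 rises, Cxcr2 is higher at under 1 FPKM, and Crlf2 and Ccr10 overlap between groups.

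Chemokines outside the 9 were mostly too low to test. Of 14 further CXC, CX3C and C chemokines 5 were tested, 0 rose and 1 fell, against 7.91% and 15.6% of all tested genes. Of 19 further CC chemokines 2 were tested and 0 passed (0 at an unadjusted p under 0.05). The one that fell was Xcl1, a chemokine of T and natural killer cells, at 1.37, 0.884 and 3.06 FPKM in controls 261, 262 and 264 and 0.187, 0.398 and 0.288 FPKM in 263, 265 and 266 (log2 -1.03 ± 0.28, limma adjusted p = 0.0398). It entered through the controls alone, and its call was lost in 9 of 15 alternatives, among them leaving out 261, 263, 265 or 266 (adjusted p = 0.0505 to 0.115 over those 9). Among 8 T cell markers, 5 were tested, Cd3g, Cd3e and Il2rb fell and Thy1 rose, where 15.6% of all tested genes fell and 7.91% rose. Cd3e and Il2rb reached the level for testing through the controls alone, where they are high, so a fall was favoured for them. The 8 summed to 17.4 to 26.9 FPKM in controls and 34.2 to 36.5 FPKM in knockout-labelled libraries. Thy1, which fibroblasts also express, made up 37.3% to 43.8% of the sum in controls and 78.2% to 85.9% in knockout-labelled libraries. Without Thy1 the sum was 10.9 to 15.1 FPKM in controls and 4.82 to 7.58 FPKM in knockout-labelled libraries, without overlap. Their part in the Xcl1 values was not tested. Cxcl16, a transmembrane chemokine, differed by 0.38 ± 0.11 (adjusted p = 0.0537, limma). It passed as higher under the length adjustment, median scaling, quantile normalization and a filter at 5 FPKM, and without control 264. Cx3cl1 differed by -0.22 ± 0.08 (adjusted p = 0.0880, limma).

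Of 19 other cytokines, mostly of the IL-20 and IL-6 families and haematopoietic growth factors, with Tnf among them, 6 were tested. Of these 2 rose and 0 fell, against 7.91% and 15.6% of all tested genes. With no filter on low values 4 rose, Il11 and Il19 among them, and with a filter at 5 FPKM 0 rose. Without 262, 1 also fell (Il15). Clcf1, an IL-6 family ligand, rose from 1.68 ± 0.228 to 4.05 ± 0.777 FPKM (log2 0.91 ± 0.14, limma adjusted p = 0.00680). Il23a, which encodes the p19 subunit of interleukin-23, rose from 1.02, 0.760 and 1.45 FPKM to 2.17, 2.25 and 2.24 FPKM (log2 0.65 ± 0.14, limma adjusted p = 0.0188). Both had groups that did not overlap, but the call of Il23a was lost without 261, 263, 265 or 266 (adjusted p = 0.0555 to 0.0634). Il6 reached at most 0.00894 FPKM, Tnf at most 0.465 FPKM, and Il10 and Il22 were listed at 0 in every library. Among 8 fibroblast markers, 5 were tested and 3 rose (Thy1, Col1a2 and Col1a1), against 7.91% of all tested genes. The 8 summed to 121 to 154 FPKM in controls and 156 to 189 FPKM in knockout-labelled libraries. Thy1, also on the T cell list, went from 9.21 to 29.2 FPKM, and without it these sums overlap. Dcn, the largest part of the sum, stood at 105 and 111 FPKM and did not pass (limma adjusted p = 0.731). The part of fibroblasts in the values of Cxcl1, Cxcl2, Ccl20, Il24 and Clcf1 was not tested.

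NF-kB subunits, inhibitors and inducible genes were 25, of which 23 were tested, 5 rose and 2 fell, against 7.91% and 15.6% of all tested genes, with a median log2 difference of 0.17 (all tested genes -0.06). Bcl3, an atypical inhibitor that acts in the nucleus with NF-kB subunits, rose from 2.54, 2.07 and 2.98 FPKM to 15.1, 14.1 and 10.3 FPKM (log2 1.995 ± 0.16, limma adjusted p = 0.00132). Ptgs2, the inducible cyclooxygenase, went from 0.336 ± 0.0858 to 1.74 ± 0.409 FPKM (log2 1.03 ± 0.14, limma adjusted p = 0.00555) and was tested only through the knockout-labelled libraries. The adhesion receptor Icam1 (0.46 ± 0.09) and the co-activator Nfkbiz (0.50 ± 0.12) rose, as did the subunit Rela (0.21 ± 0.06), which falls outside the naming rule and was named after its value was seen. Ikbkg, the regulatory subunit of the IkB kinase complex (-0.44 ± 0.06), and Birc3, a ubiquitin ligase of TNF receptor signalling (-0.35 ± 0.10), fell. The inhibitors Nfkbia and Tnfaip3, which NF-kB itself induces, differed by 0.34 ± 0.13 and 0.33 ± 0.10 and did not pass (limma adjusted p = 0.103 and 0.0584). The counts depended on scaling: 8 rose and 1 fell under median scaling and after a length adjustment, and 10 rose and 1 fell after quantile normalization. Without 262, 263, 265 or 266 between 2 and 3 rose. The call of Rela was lost in 9 of 16 settings, including without any library but 264 (limma adjusted p = 0.0527 to 0.166). The call of Icam1 was lost without 263 (adjusted p = 0.0545), that of Nfkbiz without 262, 263, 265 or 266 and in 2 other settings (0.0670 to 0.102), and that of Birc3 in 8 settings, including without 261, 262, 263 or 266 (0.0654 to 0.13).

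Of 14 JAK-STAT mediators, all tested, 2 rose and 1 fell, against 7.91% and 15.6% of all tested genes (median log2 -0.11, all tested genes -0.06). Under median scaling 4 rose and 1 fell, and without control 264, 3 rose and 3 fell. Socs3, a feedback inhibitor of cytokine receptors that is induced by STAT3, rose from 9.19 ± 0.470 to 14.7 ± 1.21 FPKM (log2 0.62 ± 0.08, limma adjusted p = 0.00427). Jak2 rose (0.35 ± 0.08) and Stat2 fell (-0.36 ± 0.08), with limma adjusted p of 0.0283 and 0.0266. Both calls were lost in several settings, that of Jak2 without 262, 263, 265 or 266 (0.0505 to 0.0900 over 6 settings) and that of Stat2 without any library but 264 (0.0537 to 0.0943 over 8 settings). Of 16 keratinocyte cytokine receptors and adaptors, all tested, 2 rose and 2 fell (median log2 -0.07), again beside 7.91% and 15.6% of all tested genes. After the length adjustment 4 rose and 2 fell, and with a term for sex 2 rose and 0 fell. Il4ra, the receptor chain shared by interleukins 4 and 13, rose from 5.96 ± 0.655 to 12.2 ± 1.13 FPKM (log2 0.93 ± 0.10, limma adjusted p = 0.00290), and the TNF receptor Tnfrsf1a rose by 0.33 ± 0.06. Ifngr2 (-0.33 ± 0.08) and Il1rap (-0.36 ± 0.09), chains of the interferon gamma and interleukin-1 receptors, fell. The call of Tnfrsf1a was lost without 263 (0.0589), that of Ifngr2 without 261, 263, 265 or 266 or with a term for sex (0.0607 to 0.0917), and that of Il1rap without 261, 262, 263 or 265 and in 2 other settings (0.0640 to 0.0997). The interleukin-17 receptor chains Il17ra and Il17rc, which raise Cxcl1 and Ccl20 when engaged, differed by -0.003 ± 0.09 and -0.08 ± 0.09 and did not pass (limma adjusted p = 0.982 and 0.558).

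**Figure D4:**
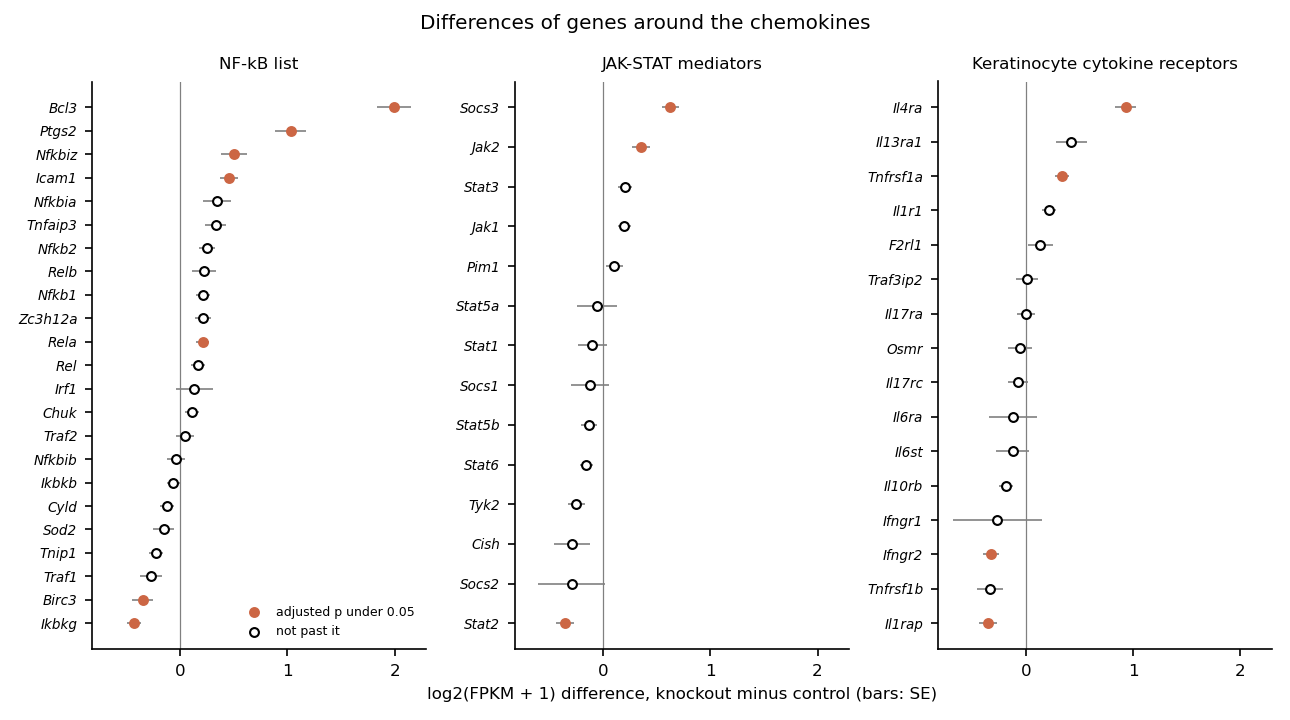
Log2(FPKM + 1) differences, knockout minus control (horizontal axis, bars are SE, n = 3 per group), for tested genes of the NF-kB, JAK-STAT and cytokine receptor lists. Filled points passed limma's adjusted p threshold of 0.05, and Bcl3, Ptgs2, Il4ra and Socs3 lie farthest to the right.

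Profiles were compared by the root mean square distance between log2 values over the 6 libraries, each gene centred on its own mean. The closest were sought among tested genes, leaving out the 9, predicted Gm genes, Rik names, -ps pseudogenes and rows without a symbol. For Il24 they were BC117090, the matricellular gene Ccn1 and the tenascin gene Tnc, at distances of 0.22, 0.23 and 0.26. All 3 were expressed in controls, unlike Il24, with Tnc at 40.3, 30.8 and 33.7 FPKM in controls and 95.5, 126 and 91.0 FPKM in knockout-labelled libraries. For Cxcl1 they were Kdelr3, the immediate early gene Egr1 and the lipoprotein receptor Lrp8 (0.09, 0.10 and 0.11). Egr1 measured 64.5, 69.7 and 61.3 FPKM in controls 261, 262 and 264, against 150, 144 and 122 FPKM in 263, 265 and 266, in the same order of libraries as Cxcl1. Being picked for a like profile over these libraries favours a shared order, so nothing is read from it. For Il34 they were Smim5, the myeloid signalling adaptor Fcer1g and Pld4 (0.05, 0.07 and 0.07), and Fcer1g is one of the macrophage and monocyte markers. For Ccl6 they were Tesc, Skint10 and Pla2g5 (0.12, 0.15 and 0.15), with Skint10 at 9.50, 11.2 and 13.1 FPKM in controls and 2.02, 3.17 and 2.77 FPKM in knockout-labelled libraries.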

How the data were processed

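RNA-seq of 6 epidermal libraries was used, 3 per group as labelled. FPKM per gene was deposited by the authors, and CASAVA, Cufflinks and GRCm38 are named per the submitters' processing notes; strandedness and annotation release are not stated there or in the labels. Of 49452 gene rows, 49195 identifiers matched the GENCODE annotation of GRCm38, which gave symbols and coordinates, 22449 rows were 0 in every library and 75 rows with duplicated symbols were left out. Raw counts were not used, so precision rests on the spread between libraries. The 13500 genes whose mean reached 1 FPKM in one group or both were fitted as log2(FPKM + 1) with limma 3.58.1 (variance trend, no robust step) in R 4.3.3, control against knockout-labelled, with Benjamini-Hochberg adjustment over all 13500 and a threshold of 0.05. Simulated data for this comparison held 13500 genes, with 100 changed per size. Of the 2-fold changes 91% were recovered, and of the 4-fold changes 96%, with 9 false calls. The changed genes were drawn only from genes with higher control levels, so the figures cover no changed gene with a low control level. They are therefore not read for genes with low control levels, such as Il24, Cxcl1, Ccl20, Clcf1, Il23a, Ackr2, Xcl1 and Ptgs2. The 9 genes and all 15 lists were chosen with earlier results of these data known. Named genes were the 9, up to 6 called genes per pathway list by smallest p, the 3 closest profiles to each of the 9 whose groups did not overlap and differed by at least 1 (log2), and neighbours within 100 kb. Sequences were RefSeq promoters (GRCm38.p6). Alternatives covered the pseudocount, filter, scaling, gene length, sex, prior variance and each library left out. Sex was inferred from the levels of Y-linked genes and Xist. By that reading 2 control libraries and 1 knockout-labelled library were male, so sex was uneven between the groups.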

Additional observations from a re-analysis of the deposited data

How the results depend on the processing

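No paired analysis was possible because the library numbers differ in every library, so no number is shared between groups. Over all tested genes 3169 were called, 1068 higher and 2101 lower. With a term for inferred sex there were 1852, with 634 higher and 1218 lower, and after the length adjustment 1657 were higher. Leaving out 1 library gave 1462 to 3784 calls, 477 to 1514 higher and 985 to 2270 lower. Fewer samples enter those fits. Il24, Il34, Cxcl1, Cxcl2, Ccl6, Ccl20 and Ccl27a kept their direction in every alternative that gave a value. The limma calls of Ccl20 and Ccl27a were lost in some of them, as given above. The difference changed sign for Tslp (-0.007) and Cxcl14 (-0.025), both without library 266, and the cause was not tested; the highest values with another library left out were 0.253 and 0.062. Of 21 named pathway genes, 8 passed under every alternative and 13 lost the call in at least 1. Calls on the cell type marker lists were not followed through the alternatives, except that of Csf1r, also a named pathway gene. Values below about 1 FPKM depend most on the pseudocount, and the depth behind them is not known in reads.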
